A study of Mus musculus with 16 samples.

Results

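Type I interferon effector genes were followed in samples labelled as tumours of mouse cancer lines that were wild type or had lost Trp53bp1, which encodes the DNA repair protein 53BP1. The set holds 30 named genes that are known to be induced by type I interferon and to act against viruses or to modify the response, and they were matched to the tables by gene symbol. A row was found for 28 of the 30, out of 18635 genes with a row in at least 1 table. Mx1 and Mx2, the GTPases that block incoming viruses, were not analysed here.

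The series asks how the loss of 53BP1 affects the immune response, by RNA sequencing of 16 samples that the labels call tumours, each numbered as a biological replicate. ID8, a mouse ovarian surface epithelial cancer line, gave 3 wild-type and 3 Trp53bp1 knockout samples, and KPC, a mouse pancreatic cancer line, gave 5 wild-type and 5 Trp53bp1 knockout samples. By the labels all lines had been implanted into syngeneic mice, the knockout having been made in the lines and not in the mice, and RNA was extracted with a column kit, from cells as the labels put it. Each genotype is represented by 1 line in the labels, so the knockout and other differences between the 2 lines compared cannot be told apart, and the host strain, age and treatment of the mice are not given in the sources used here. Values below are CPM, counts scaled to library size with TMM factors within each line, listed in the order of the replicate numbers. The word "rose" is used for an edgeR adjusted p of 0.05 or less.

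Type I interferon is sensed by the receptor IFNAR1-IFNAR2, whose kinases JAK1 and TYK2 activate STAT2. With IRF9 this factor takes part in the complex ISGF3, which binds the interferon-stimulated response element (ISRE) in the promoters of target genes. The targets described here cut, bind or starve viral RNA and proteins, attach the ubiquitin-like protein ISG15 to other proteins, or tune the pathway itself, and in tumours they are widely used as a readout of interferon signalling.

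Totals were 17902867 to 19727536 counts per library, so that 3 counts stand for 0.152 to 0.168 CPM. Trp53bp1 checked the labels and was lower in every knockout library than in every wild-type library of its line. In ID8 it was at 44.7, 49.4 and 44.1 CPM in the wild-type and 17.8, 18.5 and 18.8 CPM in the knockout libraries, a log2 fold change of -1.33 (SE 0.0667, adjusted p = 1.15e-10 by edgeR). In KPC it was at 50.5, 50.3, 54.0, 46.7 and 56.0 CPM in the wild-type and 27.9, 37.1, 37.9, 34.9 and 32.9 CPM in the knockout libraries, a log2 fold change of -0.59 (SE 0.0898, adjusted p = 0.00401 by edgeR). In all 6 ID8 libraries Ptprc of leukocytes, Cdh5 and Kdr of endothelium and all 3 red blood cell markers were at 0, whereas Ptprc, Cdh5 and Hbb-bs were at 0 in no KPC library. Other genes of the marker lists were present in ID8, such as Pecam1 (2.15 to 2.66 CPM in the wild-type libraries) and Cd68 (10.7 to 12.2 CPM). The 4 fibroblast markers summed to 632.9 to 736 CPM over both genotypes, mostly from Dcn (411 to 610 CPM). Pdgfrb among them had only 3 counts in the wild-type and 2 in the knockout libraries. The sources used here do not settle whether the ID8 samples were whole tumours, sorted cells or cultured cells, so differences between ID8 and KPC may compare unlike material, and line and material cannot be told apart. In bulk samples, fewer cells of a type and less RNA per cell cannot be told apart.

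The promoters of the members were searched for the letters of the element that ISGF3 binds. RefSeq promoters (build GRCm38.p6) were matched by symbol for 23 of the 30 members, and the 250 bases before each gene start were searched on both strands for the ISRE core, which is GAAA, any 2 bases and GAAA again. The 6 windows below are shown because they cover 3 of the 4 IFIT genes with the core (Ifit1, Ifit3 and its near copy Ifit3b, each with 2 matches), Isg15 and Rsad2, also with the core, and Ifi35, which rose in both lines and has no match. The core is in capitals, and it reads TTTC, 2 bases and TTTC where it lies on the other strand.
Ifit1: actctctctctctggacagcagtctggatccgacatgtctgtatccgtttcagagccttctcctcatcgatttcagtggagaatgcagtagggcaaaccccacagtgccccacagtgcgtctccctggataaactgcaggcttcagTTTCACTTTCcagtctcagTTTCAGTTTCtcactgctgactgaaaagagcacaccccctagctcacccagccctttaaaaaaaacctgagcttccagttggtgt
Ifit3: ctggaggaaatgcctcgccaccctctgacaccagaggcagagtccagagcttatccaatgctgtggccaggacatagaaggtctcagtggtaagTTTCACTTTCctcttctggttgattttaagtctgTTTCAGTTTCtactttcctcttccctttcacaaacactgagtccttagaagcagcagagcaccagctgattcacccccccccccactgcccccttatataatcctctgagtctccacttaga
Ifit3b: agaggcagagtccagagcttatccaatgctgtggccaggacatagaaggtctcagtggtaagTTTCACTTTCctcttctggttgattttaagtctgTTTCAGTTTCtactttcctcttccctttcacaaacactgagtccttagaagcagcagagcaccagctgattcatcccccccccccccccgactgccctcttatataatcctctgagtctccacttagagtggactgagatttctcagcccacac
Isg15: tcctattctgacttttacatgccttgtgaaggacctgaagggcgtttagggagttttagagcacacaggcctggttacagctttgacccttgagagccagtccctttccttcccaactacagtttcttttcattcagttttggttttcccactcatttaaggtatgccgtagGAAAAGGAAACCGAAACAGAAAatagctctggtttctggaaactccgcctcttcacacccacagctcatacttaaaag
Rsad2: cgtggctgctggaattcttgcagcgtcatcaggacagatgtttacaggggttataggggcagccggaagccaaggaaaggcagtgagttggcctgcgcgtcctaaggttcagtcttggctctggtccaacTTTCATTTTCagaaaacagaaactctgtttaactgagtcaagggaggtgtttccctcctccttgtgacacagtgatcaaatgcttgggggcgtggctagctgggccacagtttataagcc
Ifi35: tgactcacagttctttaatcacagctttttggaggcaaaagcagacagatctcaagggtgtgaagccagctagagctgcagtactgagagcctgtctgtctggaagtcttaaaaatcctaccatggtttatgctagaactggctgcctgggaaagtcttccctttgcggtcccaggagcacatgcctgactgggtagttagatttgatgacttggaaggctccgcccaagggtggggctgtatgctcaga
The windows lie at chr19:34640639-34640888 on the forward strand (Ifit1), chr19:34583279-34583528 on the forward strand (Ifit3), chr19:34607707-34607956 on the forward strand (Ifit3b), chr4:156200819-156201068 on the reverse strand (Isg15), chr12:26456453-26456702 on the reverse strand (Rsad2) and chr11:101448162-101448411 on the forward strand (Ifi35). Ifit1, Ifit3 and Ifit3b held 2 matches each, Isg15 had 3 overlapping matches, and Rsad2 had 1. The Ifit3 and Ifit3b windows carried both matches in the same setting, and the transcripts of these genes also overlap in sequence. Of all 75-base stretches of Ifit3 transcripts, 41.1% occur in Ifit3b, and 35.7% of those of Ifit3b occur in Ifit3 (GENCODE M21), so the split of reads between the pair is uncertain.

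The core was present in the windows of 10 of the 23 members (43.5%) and of 936 of 27025 genes in the whole promoter table (3.46%). The 10 members were Ddx60, Ifit1, Ifit1bl1, Ifit3, Ifit3b, Isg15, Rsad2, Slfn5, Slfn8 and Trim30a, the last in 1 of its 2 listed promoters. A longer form, the core followed by CT, was present in 6 of the 23 (26.1%) and in 0.255% of all genes. The gamma-activated site TTCNNNGAA was present in 2 of the 23, Ifit2 and Isg20 (8.70%), and in 8.13% of all genes. Both Ifit2 and Isg20 held it in only 1 of their listed promoters. A match describes letters in this window and is not a measured binding site, and a window without one shows only that these letters are not in it.

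In ID8 the knockout samples had higher levels of nearly the whole set. Of 27 members tested, 25 rose and 0 fell, where 25.4% of all 11933 genes tested rose and 25.5% fell (50.8% together). The median log2 fold change of the members was 1.39, against 0.01 over all genes tested, and 17 of the 27 members were at least 2-fold higher, as were 256 of the 11933 genes tested. In 26 of the 27 the knockout libraries were all above the wild-type libraries, which held for 29.1% of all genes. The log2 fold change was positive for 27 of 27 members and for 50.9% of all genes. The remaining member, Slfn5, had too few counts for a test. The count filter asks for about 10 counts in 3 libraries, and 8 of the 27 (Ifit1bl1, Ifit3b, Rsad2, Usp18, Ifi44, Cmpk2, Trim30a and Slfn8) passed it only through their knockout libraries, so that they could be tested only where they were high in knockout. All 8, with log2 fold changes of 2.12 to 3.92, are among the members at least 2-fold higher and among the 26 without overlap. Of the other 19 members 17 rose, with a median log2 fold change of 0.81 (0.12 to 2.99). With no filter the log2 fold change of Slfn5 was -1.32 (SE 0.624, adjusted p = 0.0914 by edgeR). The counts and medians of roles below include the 8 and leave out Slfn5.

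**Figure D1:**
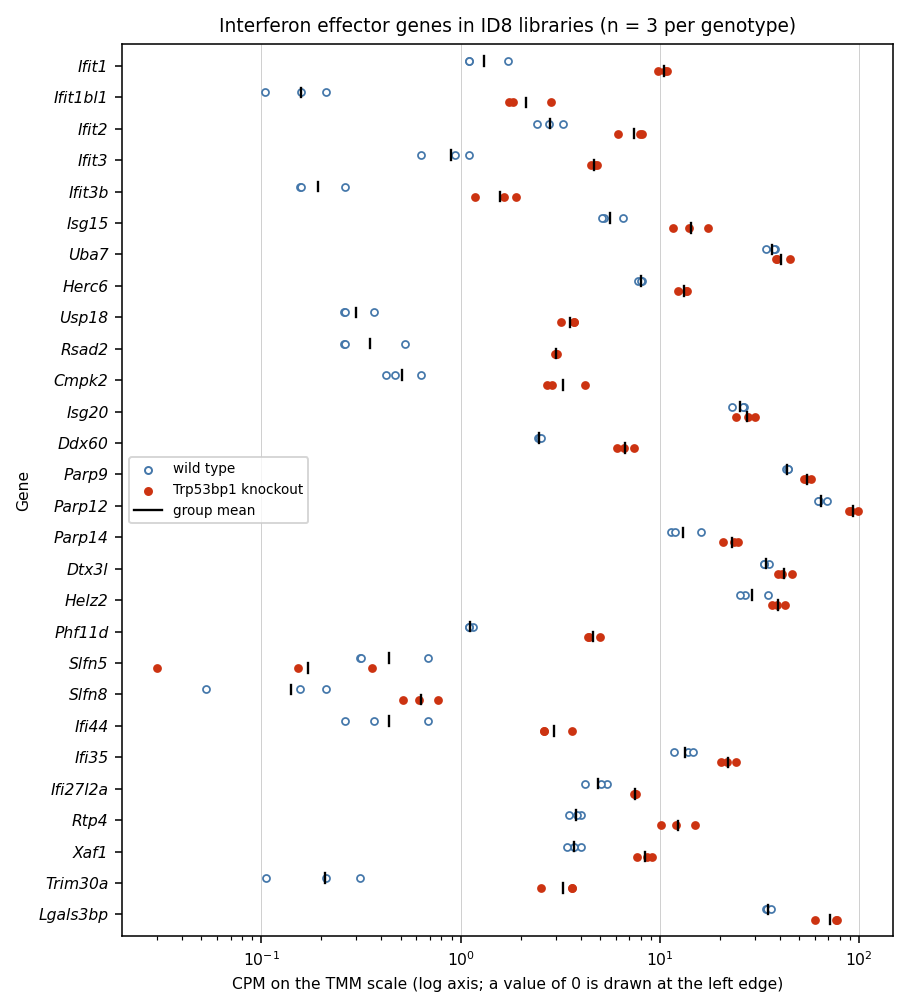
CPM of the 28 members (rows) on a log axis in the 3 wild-type (open) and 3 knockout (filled) ID8 libraries, with each group mean as a bar. The knockout points lie to the right of the wild-type points for all members except Isg20 and Slfn5.

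The IFIT genes, clustered on chromosome 19, encode proteins that bind foreign RNA and one another, and all 5 of 5 rose in ID8 (median log2 fold change 2.99). Ifit1 (gene ID 15957), which captures RNA with a foreign cap, was at 1.10, 1.11 and 1.73 CPM in the wild-type and 10.7, 10.9 and 9.76 CPM in the knockout libraries. Its knockout libraries were all far above the wild-type ones, with a log2 fold change of 2.99 (SE 0.156, adjusted p = 1.72e-10 by edgeR). Ifit1bl1 (gene ID 667373), an Ifit1-like gene, was at 0.104, 0.211 and 0.158 CPM in the wild-type and 1.84, 1.74 and 2.83 CPM in the knockout libraries, which rests on 9 counts in wild type and 125 in knockout. The groups were well apart, and its log2 fold change of 3.71 (SE 0.374, adjusted p = 4.83e-07 by edgeR) was among the 3 largest of the set. Ifit2 (gene ID 15958) was at 2.77, 3.27 and 2.42 CPM in the wild-type and 6.18, 8.15 and 7.91 CPM in the knockout libraries, with a log2 fold change of 1.39 (SE 0.151, adjusted p = 1.05e-06 by edgeR), the smallest change of the family. Ifit3 (gene ID 15959), a partner that stabilises IFIT1, was at 0.940, 0.633 and 1.10 CPM in the wild-type and 4.70, 4.82 and 4.52 CPM in the knockout libraries. Its copy Ifit3b (gene ID 667370) was at 0.157, 0.158 and 0.263 CPM in the wild-type and 1.18, 1.90 and 1.64 CPM in the knockout libraries. In both genes every knockout library exceeded every wild-type library, with log2 fold changes of 2.38 (SE 0.193, adjusted p = 3.73e-08 by edgeR) and 2.99 (SE 0.364, adjusted p = 3.99e-06 by edgeR).

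Of the ISG15 system 3 of 4 genes rose. Isg15 (gene ID 100038882), the ubiquitin-like modifier itself, was at 5.27, 5.11 and 6.57 CPM in the wild-type and 17.4, 11.6 and 13.98 CPM in the knockout libraries. All knockout libraries were higher, and the log2 fold change was 1.34 (SE 0.152, adjusted p = 1.25e-05 by edgeR). Usp18 (gene ID 24110), the protease that removes ISG15 and dampens the receptor, was at 0.261, 0.264 and 0.368 CPM in the wild-type and 3.73, 3.18 and 3.70 CPM in the knockout libraries. This was again one of the 3 largest changes, a log2 fold change of 3.54 (SE 0.250, adjusted p = 6.67e-09 by edgeR). Herc6 (gene ID 67138), the ligase that attaches ISG15 in mice, was at 7.78, 8.17 and 8.04 CPM in the wild-type and 13.6, 13.5 and 12.3 CPM in the knockout libraries, and it rose by 0.72 (SE 0.0903, adjusted p = 5.73e-06 by edgeR) on the log2 scale. Uba7 (gene ID 74153), the enzyme that activates ISG15, was at 37.7, 37.4 and 33.98 CPM in the wild-type and 38.4, 45 and 38.6 CPM in the knockout libraries. Its groups lay close together without overlap, and the log2 fold change of 0.16 (SE 0.0707, adjusted p = 0.0673 by edgeR) did not pass, though it did without knockout replicate 1 (0.20) and with no count filter (0.17).

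Among the nucleotide and RNA enzymes 3 of 4 rose (median 2.05). Rsad2 (gene ID 58185) encodes viperin, which makes a chain-terminating nucleotide, and it was at 0.261, 0.264 and 0.525 CPM in the wild-type and 2.96, 3.02 and 3.03 CPM in the knockout libraries. Cmpk2 (gene ID 22169), a nucleotide kinase gene on chromosome 12 like Rsad2, was at 0.470, 0.633 and 0.420 CPM in the wild-type and 4.19, 2.72 and 2.88 CPM in the knockout libraries. Both were low in all wild-type libraries and several times higher in all knockout libraries, with log2 fold changes of 3.08 (SE 0.261, adjusted p = 6.52e-08 by edgeR) and 2.67 (SE 0.267, adjusted p = 4.27e-07 by edgeR). Ddx60 (gene ID 234311), a helicase gene, was at 2.45, 2.48 and 2.52 CPM in the wild-type and 7.41, 6.61 and 6.06 CPM in the knockout libraries, with a log2 fold change of 1.43 (SE 0.136, adjusted p = 2.51e-07 by edgeR). Isg20 (gene ID 57444), an RNA exonuclease gene, was at 26.3, 23.04 and 26 CPM in the wild-type and 27.7, 24.1 and 30.2 CPM in the knockout libraries. Its groups overlapped, and the log2 fold change was 0.12 (SE 0.0827, adjusted p = 0.24 by edgeR), the smallest of the set, which passed without knockout replicate 2 (0.20).

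The PARP and DTX3L group, ADP-ribosyltransferases and the ubiquitin ligase that pairs with PARP9, rose in 4 of 4 cases but by little (median 0.43). Parp9 (gene ID 80285) was at 44.1, 43.02 and 43.8 CPM in the wild-type and 57.1, 54.03 and 52.8 CPM in the knockout libraries. Parp12 (gene ID 243771) was at 62.7, 62.4 and 68.8 CPM in the wild-type and 98.9, 91.03 and 89.3 CPM in the knockout libraries. Parp14 (gene ID 547253) was at 11.4, 16.03 and 11.9 CPM in the wild-type and 24.7, 23.5 and 20.9 CPM in the knockout libraries. No group of these overlapped, the replicates lay close together, and log2 fold changes of 0.33 (SE 0.0551, adjusted p = 0.000124 by edgeR), 0.53 (SE 0.0574, adjusted p = 1.18e-06 by edgeR) and 0.81 (SE 0.115, adjusted p = 6.76e-05 by edgeR) passed. Dtx3l, whose log2 fold change was 0.31, spanned 33.3 to 35.2 CPM in the wild-type and 39.2 to 46.1 CPM in the knockout libraries.

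Of the nuclear regulators and Schlafen genes, 3 of 3 tested members rose (median 2.03). Helz2 (gene ID 229003), a helicase-type coactivator gene, was at 26.8, 34.7 and 25.3 CPM in the wild-type and 36.5, 42.2 and 38.6 CPM in the knockout libraries. The highest wild-type library was just under the lowest knockout library, and the log2 fold change was 0.44 (SE 0.109, adjusted p = 0.00739 by edgeR). Phf11d (gene ID 219132), a PHD finger gene, was at 1.15, 1.11 and 1.10 CPM in the wild-type and 5.005, 4.41 and 4.37 CPM in the knockout libraries, with a log2 fold change of 2.03 (SE 0.172, adjusted p = 6.37e-08 by edgeR) and groups far apart. Slfn8, a Schlafen gene, spanned 0.0525 to 0.211 CPM in the wild-type and 0.511 to 0.771 CPM in the knockout libraries, with a log2 fold change of 2.12. Slfn5 (gene ID 327978) was at 0.313, 0.316 and 0.683 CPM in the wild-type and 0.153, 0.359 and 0 CPM in the knockout libraries, or 25 and 10 counts in all. It did not pass the count filter, its groups overlapped, and its values rest on few counts.

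The other 7 effectors all rose (median 1.19). Trim30a (gene ID 20128), a TRIM family gene, was at 0.313, 0.105 and 0.210 CPM in the wild-type and 3.63, 3.64 and 2.52 CPM in the knockout libraries. This gave the largest log2 fold change of the set, 3.92 (SE 0.320, adjusted p = 4.00e-08 by edgeR). Ifi44 (gene ID 99899), a GTP-binding type gene, was at 0.365, 0.685 and 0.263 CPM in the wild-type and 3.63, 2.61 and 2.62 CPM in the knockout libraries, with groups far apart and a log2 fold change of 2.74 (SE 0.289, adjusted p = 8.14e-07 by edgeR). Lgals3bp (gene ID 19039), which encodes a secreted galectin-binding glycoprotein, was at 33.98, 34.7 and 36.3 CPM in the wild-type and 77.3, 59.97 and 76.6 CPM in the knockout libraries. Ifi35 (gene ID 70110), whose protein pairs with NMI, was at 13.8, 14.6 and 11.8 CPM in the wild-type and 21.8, 20.2 and 24.1 CPM in the knockout libraries. In both, all knockout libraries were above all wild-type libraries, with log2 fold changes of 1.03 (SE 0.0888, adjusted p = 1.18e-06 by edgeR) and 0.72 (SE 0.0911, adjusted p = 6.05e-06 by edgeR). The remaining 3 had log2 fold changes of 1.71 (Rtp4, a chaperone-type gene), 1.19 (Xaf1, an antagonist of the apoptosis inhibitor XIAP) and 0.61 (Ifi27l2a), each without overlap. In the wild-type and the knockout libraries, Rtp4 spanned 3.50 to 4.01 and 10.1 to 15.1 CPM, Xaf1 3.41 to 4.02 and 7.66 to 9.18 CPM, and Ifi27l2a 4.20 to 5.43 and 7.46 to 7.55 CPM.

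Of the 10 members with the ISRE core, 4 passed the ID8 count filter in wild type. These were Ddx60, Ifit1, Ifit3 and Isg15, with log2 fold changes of 1.43, 2.99, 2.38 and 1.34. Another 5 (Ifit1bl1, Ifit3b, Rsad2, Slfn8 and Trim30a) passed only through knockout, and the tenth, Slfn5, was not tested. Among the 13 members without the core, 11 passed in wild type, with log2 fold changes from 0.12 (Isg20) to 2.03 (Phf11d), and Cmpk2 and Ifi44 only through knockout. Since 5 members with the core and 2 without it could be tested only where they were high in knockout, no median is compared in ID8. In KPC, where all were tested, the medians were 0.31 for 10 members with the core and 0.46 for 13 without, as a description with no test.

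**Figure D2:**
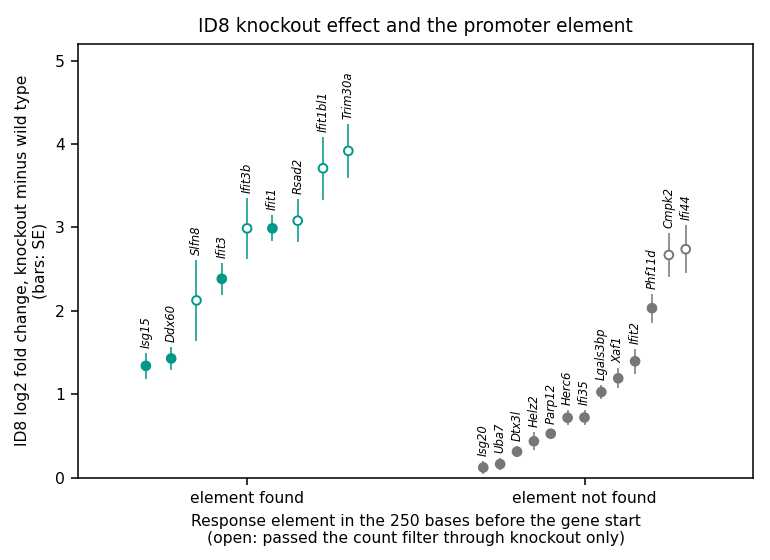
ID8 log2 fold change (knockout minus wild type, bars SE) of the tested members with a RefSeq promoter, split by whether the ISRE core was found in the 250 bases before the gene start. Open points passed the count filter through knockout only, and they make up 5 of the 9 points with the core and 2 of the 13 without.

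Leukocyte, lymphoid and most plasmacytoid dendritic cell markers were at or near 0 in the ID8 libraries in which these genes rose. The leukocyte list (Ptprc, Cd53, Laptm5, Coro1a) summed to 0.0522 to 0.211 CPM in the wild-type libraries and 0.102 to 0.308 CPM in knockout, with Ptprc and Laptm5 at 0. Siglech, Ccr9 and Klk1, 3 of 4 plasmacytoid dendritic cell markers, were at 0, as were all 6 T and NK cell markers and the macrophage markers Adgre1, C1qa and C1qb. Of the conventional dendritic cell markers, Xcr1, Flt3 and Cd209a were at 0. Zbtb46 was at 21.6 to 23 CPM in the wild-type and 23.3 to 26.2 CPM in the knockout libraries. The 7 macrophage markers together summed to 10.9 to 12.7 CPM in the wild-type libraries and 3.73 to 5.76 CPM in knockout, and nearly all of this was Cd68 (10.7 to 12.2 against 3.58 to 5.29 CPM). Epithelial markers fell in 5 of 6 cases in ID8, where 25.5% of all genes fell, with sums of 3630 to 3919 CPM in wild type and 2794 to 2883 CPM in knockout. Ovarian surface and mesothelial markers rose in 2 of 3 cases, where 25.4% of all genes rose, from sums of 3059 to 3373 CPM up to 4488 to 4807 CPM. Of the fibroblast markers Dcn rose and Col1a1 fell (146 to 198 against 71.1 to 90.02 CPM). The part of these markers in the result was not tested.

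In KPC all members had a higher mean in knockout, but few passed the test. Of 28 members tested, 2 rose and 0 fell, a share close to the 6.67% of all 14283 genes tested that rose (7.01% fell, 13.7% together). The 2 were Ifi35 and Isg20. The log2 fold change was positive for 28 of 28 members and for 48.2% of all genes, with a median of 0.41 against -0.01, and without wild-type replicate 1 or 5 it turned negative for 4 members (Ifit1, Ifit3b, Rsad2 and Helz2). Without knockout replicate 1 it was negative for Ifi27l2a, Cmpk2 and Rsad2, and without wild-type replicate 2 or knockout replicate 4 or 5 for some of these 6 genes. At an unadjusted p under 0.05 there were 7 of 28 members, where 32.5% of all genes were. In 0 of the 28 were the knockout libraries all above the wild-type libraries, which held for 5.34% of all genes.

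**Figure D3:**
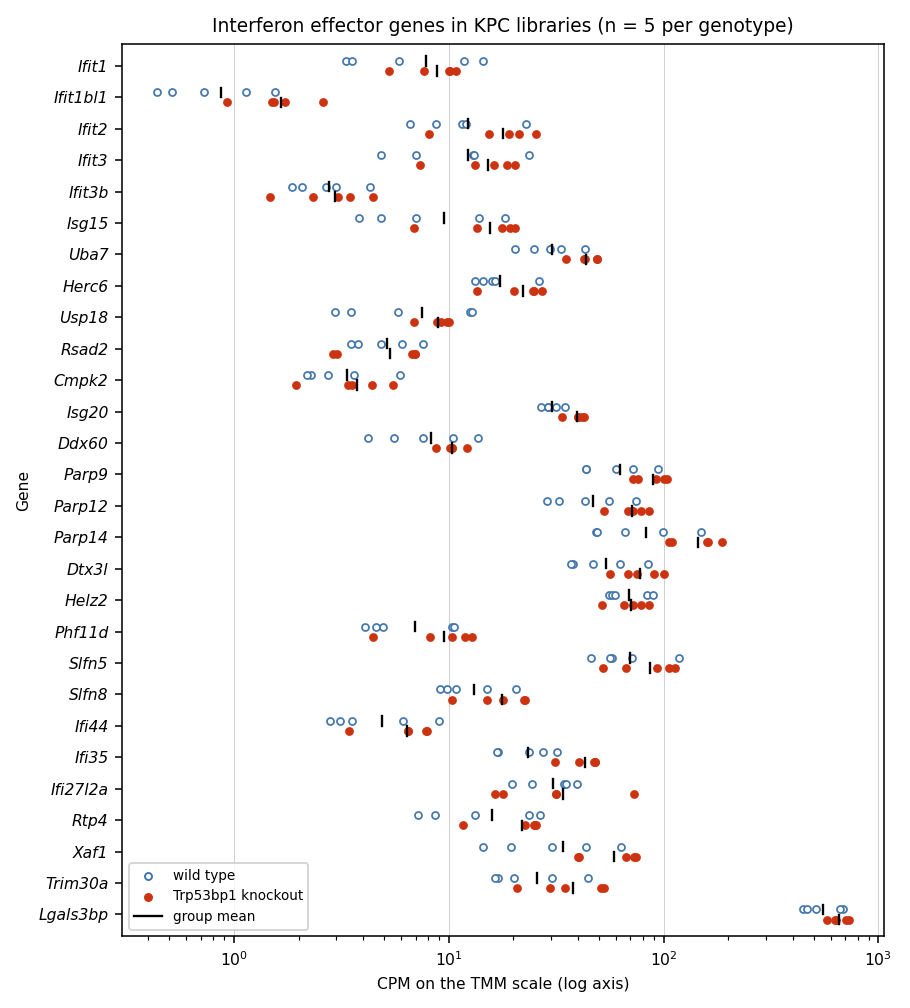
CPM of the 28 members (rows) on a log axis in the 5 wild-type (open) and 5 knockout (filled) KPC libraries, with each group mean as a bar. The mean is higher in knockout for every member, and the points of the genotypes overlap for all 28.

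Ifi35 was at 17.02, 23.5, 27.4, 32.05 and 16.8 CPM in the wild-type and 47.5, 31.1, 48.2, 40.3 and 47.98 CPM in the knockout libraries. Only the highest wild-type library, replicate 4, lay above the lowest knockout library, replicate 2, and the log2 fold change was 0.88 (SE 0.196, adjusted p = 0.019 by edgeR). Isg20 was at 26.8, 28.9, 34.9, 29.01 and 31.4 CPM in the wild-type and 40.1, 33.5, 40.1, 41.7 and 42.4 CPM in the knockout libraries, with wild-type replicate 3 above knockout replicate 2. Its spread was the smallest of the set in KPC, and its log2 fold change of 0.39 (SE 0.0892, adjusted p = 0.0204 by edgeR) passed. Without wild-type replicate 1, Isg20 no longer passed and only Ifi35 did. Without wild-type replicate 4, 9 members rose (Ifi35, Uba7, Parp14, Parp12, Parp9, Isg20, Dtx3l, Ifit1bl1 and Xaf1), as did 11.5% of all genes, and DESeq2 called 4 (11.4% of all genes) and a replicate block 5 (6.81%).

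Uba7, Parp14 and Parp12 came closest to passing. Uba7 was at 20.4, 29.6, 33.4, 42.9 and 24.8 CPM in the wild-type and 42.5, 34.98, 48.8, 49.1 and 43.2 CPM in the knockout libraries, with a log2 fold change of 0.53 (SE 0.182, adjusted p = 0.0741 by edgeR). Parp14 was at 48.2, 66.3, 99.5, 149.6 and 49.2 CPM in the wild-type and 109, 106, 159.9, 186 and 161 CPM in the knockout libraries, the third largest log2 fold change in KPC, 0.81 (SE 0.322, adjusted p = 0.114 by edgeR). In both, wild-type replicate 4 alone lay inside the knockout range. Parp12 was at 32.5, 42.9, 55.8, 74.5 and 28.7 CPM in the wild-type and 68.4, 52.8, 78.2, 85.1 and 71.7 CPM in the knockout libraries, and Parp9 was at 43.6, 60.2, 71.7, 94.6 and 43.7 CPM in the wild-type and 75.8, 71.9, 104, 100.2 and 92.7 CPM in the knockout libraries, with log2 fold changes of 0.60 (SE 0.248, adjusted p = 0.123 by edgeR) and 0.50 (SE 0.214, adjusted p = 0.134 by edgeR). Each had wild-type replicate 4 inside the knockout range, Parp12 replicate 3 too, and wild-type replicates 1 and 5 well below it. Isg15 was at 3.83, 7.03, 13.8, 18.2 and 4.81 CPM in the wild-type and 20.3, 6.92, 13.6, 17.6 and 19.4 CPM in the knockout libraries, and Herc6 was at 14.4, 15.9, 16.4, 26.4 and 13.2 CPM in the wild-type and 20.1, 13.5, 24.99, 27.2 and 24.5 CPM in the knockout libraries. The values of both were widely scattered in wild type, and log2 fold changes of 0.71 (SE 0.446, adjusted p = 0.293 by edgeR) and 0.35 (SE 0.224, adjusted p = 0.295 by edgeR) did not pass. The PARP and DTX3L group had a median log2 fold change of 0.57 (0 of 4 passed), the ISG15 system 0.44 (0 of 4).

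The IFIT genes, which had moved most in ID8 as a family, had a median of 0.30 in KPC (0 of 5 passed). Ifit1 was at 3.31, 5.88, 11.8, 14.5 and 3.56 CPM in the wild-type and 10.1, 5.28, 7.64, 10.04 and 10.8 CPM in the knockout libraries. Ifit2 was at 6.57, 11.5, 12.02, 22.8 and 8.70 CPM in the wild-type and 15.4, 8.08, 21.2, 25.6 and 19.1 CPM in the knockout libraries. In both, wild-type replicate 4 was above at least 4 of the 5 knockout libraries, and the log2 fold changes were 0.17 (SE 0.416, adjusted p = 0.805 by edgeR) and 0.54 (SE 0.364, adjusted p = 0.327 by edgeR). Ifit3 was at 4.86, 12.9, 13.1, 23.6 and 7 CPM in the wild-type and 16.1, 7.34, 13.2, 18.8 and 20.2 CPM in the knockout libraries, and Ifit3b was at 2.07, 2.995, 2.68, 4.28 and 1.86 CPM in the wild-type and 3.48, 1.48, 2.32, 3.05 and 4.45 CPM in the knockout libraries. The genotypes overlapped widely in both genes, with log2 fold changes of 0.30 (edgeR adjusted p = 0.639) and 0.09 (edgeR adjusted p = 0.868). Ifit1bl1 was at 0.517, 1.14, 0.722, 1.55 and 0.438 CPM in the wild-type and 2.61, 1.53, 0.929, 1.498 and 1.73 CPM in the knockout libraries, the largest log2 fold change of the set in KPC, 0.92 (SE 0.384, adjusted p = 0.126 by edgeR). It did not pass, and knockout replicate 1 was its highest library.

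Usp18 was at 2.95, 5.77, 12.6, 12.8 and 3.50 CPM in the wild-type and 9.24, 6.87, 8.78, 9.99 and 9.78 CPM in the knockout libraries. Wild-type replicates 3 and 4 exceeded all knockout libraries, and the log2 fold change was 0.24 (edgeR adjusted p = 0.697). Rsad2 was at 3.77, 4.85, 6.09, 7.59 and 3.50 CPM in the wild-type and 6.96, 3.01, 2.89, 6.71 and 6.96 CPM in the knockout libraries. Cmpk2 was at 2.28, 2.18, 3.61, 5.94 and 2.73 CPM in the wild-type and 5.49, 1.96, 3.41, 4.38 and 3.56 CPM in the knockout libraries. Both had a knockout library as the lowest of all 10, and log2 fold changes of 0.04 and 0.17 were near 0 (edgeR adjusted p = 0.942 and 0.759). Ddx60 was at 4.19, 7.57, 10.5, 13.7 and 5.58 CPM in the wild-type and 10.1, 8.72, 10.3, 12.2 and 10.4 CPM in the knockout libraries, with a log2 fold change of 0.31 (SE 0.279, adjusted p = 0.456 by edgeR). The 4 nucleotide and RNA enzymes had a median of 0.24.

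Trim30a was at 16.96, 20.1, 30.1, 44.7 and 16.4 CPM in the wild-type and 51.1, 20.9, 29.6, 52.8 and 34.9 CPM in the knockout libraries. Lgals3bp was at 448, 512, 686, 666 and 463 CPM in the wild-type and 579, 632, 705, 732 and 627 CPM in the knockout libraries. Ifi44 was at 2.79, 3.54, 6.14, 8.98 and 3.12 CPM in the wild-type and 6.47, 3.43, 7.79, 7.88 and 6.49 CPM in the knockout libraries. In all 3 the genotypes overlapped, and the log2 fold changes were 0.56 (SE 0.334, adjusted p = 0.267 by edgeR), 0.24 (SE 0.132, adjusted p = 0.231 by edgeR) and 0.38 (SE 0.348, adjusted p = 0.465 by edgeR). Phf11d was at 4.09, 4.96, 10.4, 10.6 and 4.59 CPM in the wild-type and 11.8, 4.44, 8.21, 12.8 and 10.4 CPM in the knockout libraries, and Helz2 was at 55.5, 57.5, 83.8, 89.4 and 59.2 CPM in the wild-type and 51.5, 78.1, 65.5, 85.96 and 71.99 CPM in the knockout libraries. Both genotypes spanned nearly the same range in Helz2, and the log2 fold changes were 0.46 (SE 0.353, adjusted p = 0.387 by edgeR) and 0.03 (SE 0.173, adjusted p = 0.915 by edgeR). Slfn5, nearly silent in ID8, was at 45.8, 57.8, 71.1, 118 and 56 CPM in the wild-type and 106, 52.3, 66.9, 113 and 93.5 CPM in the knockout libraries, with a log2 fold change of 0.31 (SE 0.283, adjusted p = 0.471 by edgeR) and full overlap. The members not listed by library (Dtx3l, Slfn8, Rtp4, Xaf1 and Ifi27l2a) had log2 fold changes of 0.53, 0.43, 0.47, 0.79 and 0.15, and 0 of these 5 passed. Their genotypes overlapped too, with Xaf1 at 14.4 to 63.02 CPM in the wild-type against 40.05 to 74.8 CPM in the knockout libraries, and Rtp4 at 7.19 to 26.6 against 11.6 to 25.5 CPM. The ranges were 37.2 to 84.4 against 56.4 to 99.9 CPM for Dtx3l, 9.10 to 20.6 against 10.4 to 22.6 CPM for Slfn8 and 19.6 to 39.4 against 16.5 to 72.5 CPM for Ifi27l2a.

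Members moved together from library to library in KPC. Wild-type replicate 4 was the highest of its group for 26 of 28 members and stood at a median of 162% of the group mean, while replicate 1 was the lowest for 19 members (65.9%) and replicate 5 for 8 (67.5%). In knockout, replicate 2 was the lowest for 24 members (60.9%) and replicate 4 the highest for 15 (117%). The signs of the 28 members are therefore not 28 separate observations. The median coefficient of variation over members was 43.6% in KPC wild type and 27.5% in KPC knockout, against 14.7% and 9.12% in ID8. In ID8 no library stood apart in this way, as each was the highest of its group for 6 to 13 members.

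**Figure D4:**
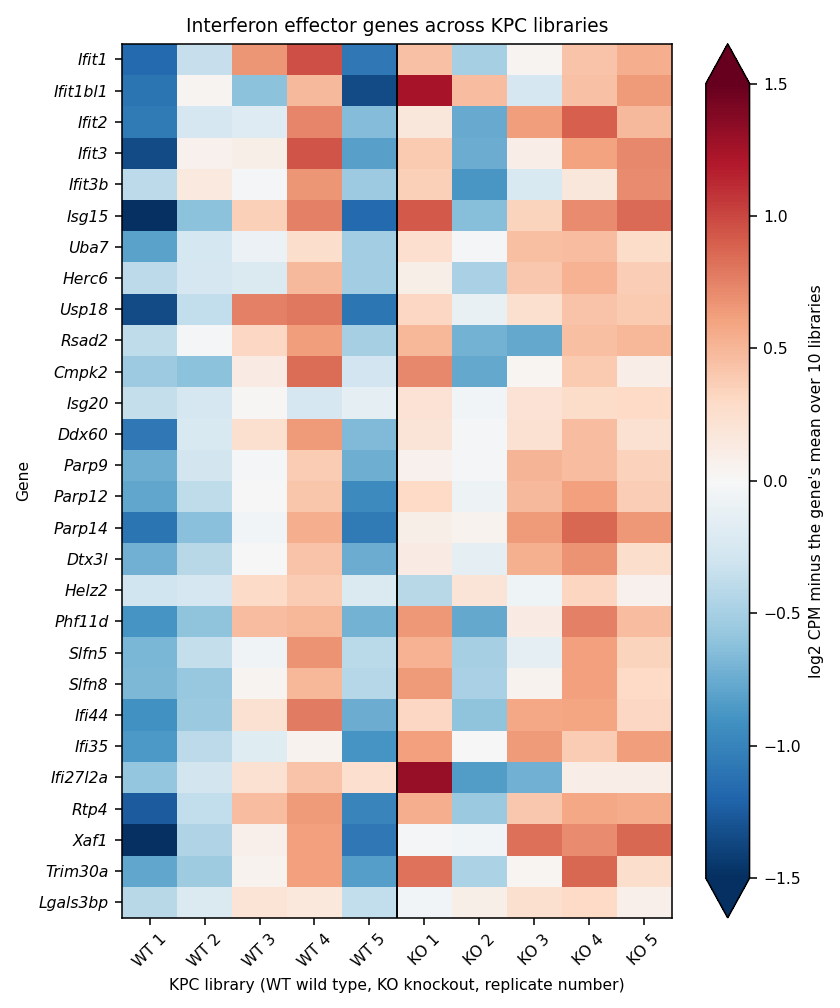
log2 CPM of each of the 28 members (rows) in each KPC library (columns) minus the mean of that gene over the 10 libraries, as colour. Wild-type replicates 1 and 5 and knockout replicate 2 are low for most genes, and wild-type replicate 4 is as high as most knockout libraries.

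Immune cell markers varied over the same KPC libraries. The leukocyte list summed to 320, 320, 465, 703 and 262 CPM in the wild-type libraries and 1147, 540, 634, 1011 and 679 CPM in knockout, so that wild-type replicate 4 was again the highest of its group and knockout replicate 2 the lowest. The sums were 1665 to 3629 CPM in the wild-type libraries and 2766 to 4474 CPM in knockout for 7 macrophage markers, 2.08 to 11.7 and 7.34 to 18.04 CPM for 4 plasmacytoid dendritic cell markers, and 8.74 to 73.0 and 48.5 to 83.7 CPM for 6 T and NK cell markers. None of these markers was at 0 in all libraries of a group. Of them 1 rose (among the T and NK cell markers), and 2 of 4 conventional dendritic cell markers rose. Epithelial markers rose in 5 of 6 cases, with sums of 6029 to 7152 CPM in the wild-type libraries and 9823 to 11970 CPM in knockout. Over all genes tested in KPC, 6.67% rose. The part of these cells in the result was not tested. Skeletal muscle markers summed to 427 to 26290 CPM in the wild-type libraries and 5.73 to 5174 CPM in knockout, and with a muscle score as a covariate 0 members passed (1.17% of all genes rose), though the log2 fold changes were 0.86 for Ifi35 (edgeR adjusted p = 0.0877) and 0.33 for Isg20 (0.114), close to those without the score.

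The knockout effect itself differed between the lines for 11 of 28 members, all with a smaller effect in KPC, and 0 had a larger one. Over all 14921 genes tested, 10.3% had a more negative effect in KPC and 11.6% a more positive one (21.8% together). The difference, the log2 fold change in KPC minus that in ID8, was -3.34 (SE 0.763, adjusted p = 0.00664 by edgeR) for Trim30a, -3.28 (SE 0.667, adjusted p = 0.00294 by edgeR) for Usp18 and -3.02 (SE 0.550, adjusted p = 0.00139 by edgeR) for Rsad2. Values for the IFIT genes were -2.88 for Ifit3b, -2.80 for Ifit1, -2.77 for Ifit1bl1 and -2.07 for Ifit3, the last at an edgeR adjusted p of 0.0341. Ifit2, at -0.84, did not pass. Cmpk2 (-2.48), Ifi44 (-2.34), Phf11d (-1.55) and Lgals3bp (-0.76) completed the 11. Of these, 8 were under 1 CPM in wild-type ID8.

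**Figure D5:**
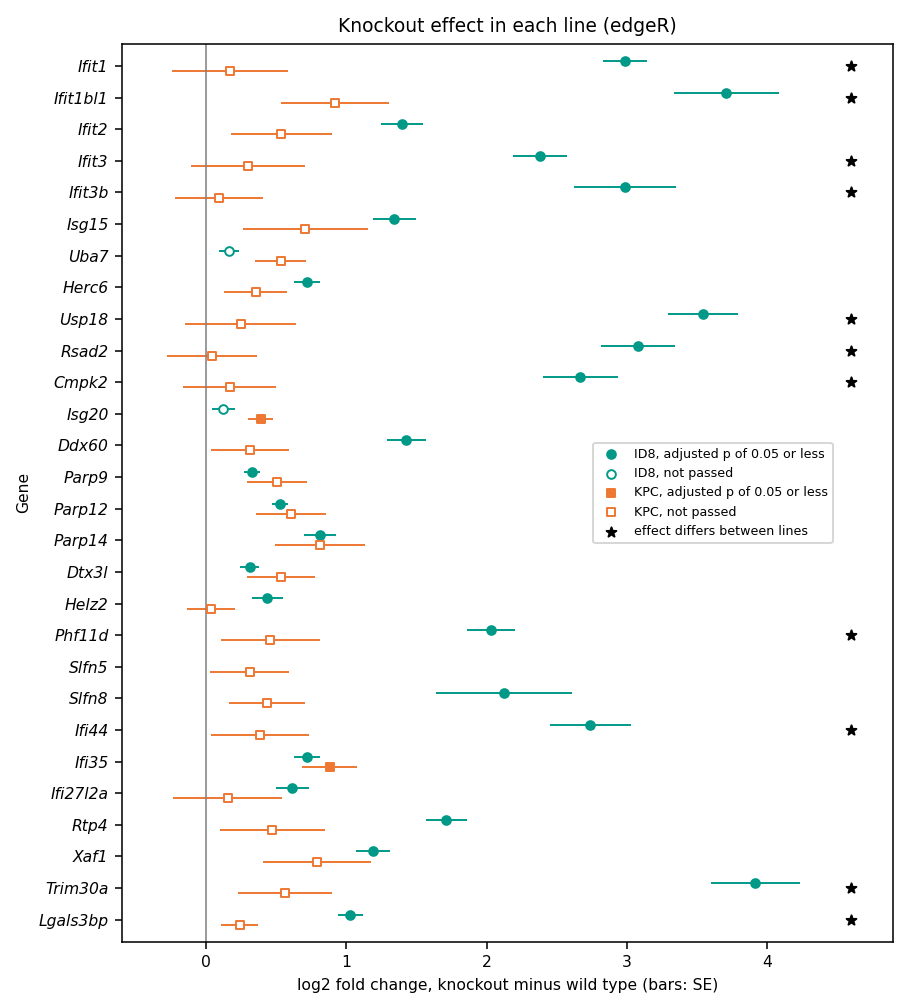
log2 fold change with SE of each member in ID8 (circles) and KPC (squares), filled where the edgeR adjusted p was 0.05 or less, and a star where the effect differed between the lines. The ID8 values reach 3.92 and the KPC values stay at or under 0.92, while the PARP and DTX3L genes have similar values in both.

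By contrast, 0 of the 4 PARP and DTX3L genes passed, with differences of 0.01 to 0.24 and a median SE of 0.35, the lowest (Parp14) turning to -0.00351 with median-of-ratios scaling. Parp12 and Parp14 were below 0 without KPC wild-type replicate 1 or 5, and Parp14 also without KPC wild-type replicate 2, KPC knockout replicate 3, 4 or 5, ID8 wild-type replicate 2 (-0.155, the lowest) or ID8 knockout replicate 3. A value this close to 0 with such an error does not show that the effects are equal. Slfn5, Isg20, Ifi35 and Uba7 also had a positive difference (1.65, 0.29, 0.18 and 0.39) that did not pass, and that of Slfn5, with an SE of 1.15, was the largest. The interaction fit shares 1 estimate of spread between the tight ID8 and the scattered KPC libraries. Fits that each omitted a library gave 9 to 12 members, as Ifit3 and Phf11d did not pass without any 1 of the 6 ID8 libraries or without KPC knockout replicate 3. Phf11d also failed without KPC wild-type replicate 3 or 4 or knockout replicate 5, and Ddx60 (-1.09) passed without KPC wild-type replicate 1 or 5 and with DESeq2. With Ifit3 and Ifit3b, and Ifit1 and Ifit1bl1, each summed, 9 of 26 genes passed.

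Wild-type libraries of the lines differed before any knockout was considered. On a joint TMM scale over all 16 libraries, the KPC wild-type libraries were all above the ID8 wild-type libraries for 22 of 28 members and all below for 0, where 44.7% of all genes were higher without overlap. The ratio of means was 152 for Slfn5 (68.5 against 0.450 CPM), 117 for Trim30a (25.2 against 0.216 CPM), 89.0 for Slfn8 and 24.2 for Usp18. The 6 members whose groups overlapped were Isg15, Isg20, Parp9, Parp12, Dtx3l and Uba7. For some members the ID8 wild-type libraries already lay wholly inside the KPC wild-type range. Examples were Isg15 (5.24 to 6.77 CPM against 3.75 to 18.3 CPM) and Parp9 (44.1 to 45.5 CPM against 42.2 to 95.1 CPM). ID8 knockout libraries were compared with the same range. They lay wholly inside it for 10 members, such as Ifit1 (10.01 to 11.2 CPM, against 3.24 to 14.6 CPM in KPC wild type), wholly above it for Ifit1bl1 and Parp12, partly inside for 7 and wholly below it for 9, such as Trim30a (2.58 to 3.73 CPM against 15.8 to 44.95 CPM). The shares over all genes were not computed for these positions, so the counts do not show whether the members differ from other genes. Line and content of host cells cannot be told apart here. Markers of leukocytes, endothelium and red blood cells were far higher in the KPC than in the ID8 libraries, but not every host cell marker was. In the wild-type libraries, scaled within each line, Zbtb46 of conventional dendritic cells was at 6.67 to 13.01 CPM in KPC and 21.6 to 23 CPM in ID8. The rest of its list, Xcr1, Flt3 and Cd209a, was at 0 in ID8 and above 0 in every KPC library. Dcn of fibroblasts overlapped between the lines, but the rest of its list was higher in KPC. Pdgfra was at 74.9 to 139 CPM in KPC against 36.8 to 43.6 CPM in ID8. Pdgfrb was at 101 to 147 against 0 to 0.104 CPM, and Col1a1 at 3661 to 5823 against 146 to 198 CPM.

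The pathway upstream of these effectors was followed with lists of 38 further genes, 30 of them with a row. In ID8, 20 of 27 tested rose and 0 fell (median log2 fold change 0.30), where 25.4% of all genes rose. The 20 include Zbp1, which could be tested only where it was high in knockout. The ID8 count was 16 to 20 without single libraries and 17 with DESeq2. Shares of all genes were not computed for these ID8 fits. In KPC, 7 of 28 tested rose and 0 fell (median 0.42), where 6.67% of all genes rose. The KPC count was 14 without wild-type replicate 4 (11.5% of all genes). It was 2 without wild-type replicate 1, 2 or 5 (2.85%, 3.75% and 2.97%) or without knockout replicate 1, 3, 4 or 5 (4.16%, 3.9%, 3.41% and 4.25%). Without wild-type replicate 3 it was 5 (4.24%), and without knockout replicate 2 it was 6 (6.81%).

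Of 10 listed genes of interferon ligands 2 had a row, the others were not analysed here, and 0 could be tested in either line. Ifne and Ifng had 0 counts in ID8, and Ifng, which signals through a separate receptor, had 20 counts in KPC wild type and 61 in KPC knockout over 5 libraries each. Of the receptors and kinases, 3 of 6 rose in ID8, by little. Ifnar1 was at 108.6 ± 1.64 CPM in the wild type against 127.6 ± 2.31 CPM in the knockout (SD, n = 3 each). Its log2 fold change was 0.23 (SE 0.0448, adjusted p = 0.000405 by edgeR), and Ifnar2 rose by 0.19 and the IL-10 receptor chain Il10rb by 0.25. In KPC 1 of 6 rose, the kinase Tyk2, with a log2 fold change of 0.37 (SE 0.104, adjusted p = 0.0407 by edgeR).

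Irf9 and Stat2, which encode parts of ISGF3, rose in ID8. Irf9 was at 14.17 ± 0.739 CPM in the wild type against 29.89 ± 1.89 CPM in the knockout (SD, n = 3 each), with a log2 fold change of 1.08 (SE 0.0748, adjusted p = 5.71e-09 by edgeR). Stat2 rose by 0.43 on the log2 scale. In KPC neither passed, with log2 fold changes of 0.25 (SE 0.160, adjusted p = 0.296 by edgeR) for Irf9 and 0.58 (SE 0.261, adjusted p = 0.153 by edgeR) for Stat2. The effect on Irf9 differed between the lines, by -0.80 (SE 0.238, adjusted p = 0.0252 by edgeR). Of the interferon regulatory factors 4 of 4 tested rose in ID8, led by Irf7, which amplifies the response, with a log2 fold change of 1.38 (SE 0.125, adjusted p = 1.37e-07 by edgeR), then Irf1 at 0.40, Irf3 at 0.18 and Irf5 at 0.17. In KPC 3 of 5 rose, Irf1 by 0.99 (SE 0.212, adjusted p = 0.017 by edgeR), Irf8 by 1.12 and Irf5 by 1.11. Irf8, a factor of myeloid and lymphoid cells, had 0 counts in ID8 wild type and 2 in ID8 knockout.

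Sensors of nucleic acid rose in 7 of 10 cases in ID8. Zbp1, a sensor of Z-form nucleic acid, was at 0.5245 ± 0.102 CPM in the wild type against 4.098 ± 0.429 CPM in the knockout (SD, n = 3 each), with a log2 fold change of 2.95 (SE 0.219, adjusted p = 1.25e-08 by edgeR). With 30 counts in wild type and 240 in knockout, Zbp1 passed the count filter only through its knockout libraries. Ddx58, the RNA sensor RIG-I, rose by 0.92, and Tlr3, an endosomal RNA sensor, by 0.74. In KPC 2 of 10 rose, Tlr3 by 0.55 (SE 0.115, adjusted p = 0.0154 by edgeR) and Sting1, the adaptor of cytosolic DNA sensing, by 0.42 (SE 0.101, adjusted p = 0.0238 by edgeR). In ID8 the log2 fold change of Sting1 was -0.06 (SE 0.0486, adjusted p = 0.289 by edgeR), and the difference between the lines, 0.51 (SE 0.150, adjusted p = 0.0241 by edgeR), passed. Cgas, the DNA sensor upstream of STING, is given because the series title names it and was chosen after its values had been seen. Its log2 fold change was 0.33 (SE 0.119, adjusted p = 0.0318 by edgeR) in ID8 and 0.46 (SE 0.280, adjusted p = 0.274 by edgeR) in KPC. Of the feedback and ISG15 pathway genes outside the set, 3 of 4 rose in ID8. Ube2l6, which carries ISG15 to its ligase, rose by 0.53, the inhibitor Socs3 by 0.39 and the ligase Trim25 by 0.25. In KPC 1 of 4 rose, the signalling inhibitor Socs1, at 10.46 ± 5.16 CPM in the wild type against 22.97 ± 6.90 CPM in the knockout (SD, n = 5 each) with a log2 fold change of 1.13 (SE 0.316, adjusted p = 0.0405 by edgeR).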

How the data were processed

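RNA of 16 mouse samples was sequenced, and the labels give their 4 groups. Alignment used HISAT and quantification RSEM 1.2.8, on genome build GRCm39 (mm39), per the submitters' processing notes. What the authors deposited are expected counts by gene, with no normalization stated, and 7.92% to 8.96% of the values in a table are not whole. Only genes above 0 in some sample of a table are listed in it, and genes without a row were set to 0. Counts were then rounded. RSEM shares reads that match several genes by estimate, which makes near-identical genes uncertain. Sampling error is largest for members with few reads, and floors of 3 counts cover counting error only.

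Genes were tested in R 4.3.3 with edgeR 4.0.16 and limma 3.58.1 (filterByExpr, TMM factors, robust quasi-likelihood F test), and p-values were adjusted over all genes by Benjamini-Hochberg, with a threshold of 0.05. ID8 and KPC had separate fits, and a model of all 16 libraries gave the interaction of line and genotype. SEs are approximate, being the log2 fold change over the root of F. Members and gene lists were chosen with earlier results of these data known. Values by library were given for the 2 members of each role with the highest mean log2 CPM, members called in KPC or by the interaction, members not called in ID8, the 3 largest changes of each line, and Isg15. The rest are given by range. Pathway genes named are up to 3 called per list and line. A gene of the pathway lists is counted but not reported here by name. Groups overlap where the highest value of one is at or above the lowest of the other.

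Other settings tried were edgeR's median-of-ratios scaling, DESeq2 1.42.0, no count filter or one at 1 CPM, a replicate block, near-identical genes summed, a muscle score covariate in KPC, and omission of each library. The comparison of proteins of related members was not run, and shared 75-base stretches of transcripts, chosen after the data were seen, took its place. Simulated data with 200 changed genes served as a test. For ID8 (11843 genes), 79.1%, 91% and 100% of 1.5, 2 and 4-fold changes were recovered, and 9.09% of calls were false. KPC (14189 genes) gave 28.4%, 71.6% and 84.8% with 2.38% false, and the interaction (14646 genes) gave 17.9%, 56.7% and 75.8% with 3.85% false. In the simulation each gene started from 1 mean over all libraries, so the lines did not differ in level. Far more genes were called in the real ID8 data (50.8%) than were changed here. The rates may therefore not hold for the real data.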

Additional observations from a re-analysis of the deposited data

Results flagged for a closer look

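The knockout effect differed between the lines, by the edgeR interaction test, for 11 members of the set. The log2 fold change in KPC minus that in ID8 was -2.80 for Ifit1, -2.77 for Ifit1bl1, -2.07 for Ifit3, -2.88 for Ifit3b, -3.02 for Rsad2, -3.28 for Usp18, -2.34 for Ifi44, -2.48 for Cmpk2, -3.34 for Trim30a, -0.76 for Lgals3bp and -1.55 for Phf11d. Among the pathway genes it was -0.80 for Irf9 and 0.51 for Sting1, and for Trp53bp1 itself it was 0.76.

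Single KPC libraries stood far from the others of their group in 8 of 106 groups examined over 53 genes, not far above the 1 in 20 that chance gives. Many of these genes moved together over the same libraries, so the 8 are not separate observations. Knockout replicate 2 was low for Isg20 (33.5 CPM), Rtp4 (11.6 CPM), Sting1 (137 CPM) and Ube2l6 (24.5 CPM). Wild-type replicate 4 was high for Herc6 (26.4 CPM) and Socs1 (19.4 CPM). Knockout replicate 1 was high for Ifi27l2a (72.5 CPM), and knockout replicate 4 was high for Ifnar1 (156 CPM). Groups of 3 in ID8 were not examined in this way.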

How the results depend on the processing

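The ID8 count of 25 members higher was 25 or 26 and that of members lower was 0 in every fit that left out 1 library. The KPC count of 2 was 4 with DESeq2 (11.4% of all genes), 5 with a replicate block (6.81%), 0 with the muscle score, and 1 to 9 without single libraries. The KPC pathway count of 7 was 0 with the muscle score and 2 to 14 without single libraries. Replicate numbers are shared between genotypes, and whether they pair the samples is not settled. Residuals of samples with the same number correlated at -0.11 to 0.17 in ID8 and -0.55 to 0.59 in KPC. The highest correlations with another number were -0.00865 to 0.217 in ID8 and 0.196 to 0.702 in KPC. With so few samples per group these values cannot exclude a pairing. The block left 10 members in the interaction, without Ifit3. Signs turned in KPC for Rsad2 (-0.00853) and Ifi27l2a (-0.0521) with the block, and for Ifi27l2a (-0.127) and Cmpk2 (-0.0835) with the muscle score. In the interaction Parp14 turned to -0.00351 with median-of-ratios scaling and -0.00368 with DESeq2. Without single libraries KPC log2 fold changes ranged from -0.0267 to 0.51 for Ifit1, -0.0934 to 0.30 for Ifit3b, -0.0718 to 0.22 for Rsad2, -0.316 to 0.35 for Ifi27l2a, -0.00165 to 0.48 for Cmpk2 and -0.0479 to 0.14 for Helz2, and the interaction from -0.0412 to 0.34 for Parp12 and -0.155 to 0.36 for Parp14. The longer promoter element was found in 6 members in place of 10, being a stricter match. The cause of the other shifts was not tested. Members under 1 CPM in ID8 wild type rest on few counts, which limits the precision of their fold changes.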
